A study of Homo sapiens with 8 samples.

Results

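The genes described here are NFE2L2, which encodes the transcription factor NRF2, and 9 genes of oxidant defence and iron handling, NQO1, HMOX1, GCLC, GCLM, SRXN1, TXNRD1, FTH1, FTL and TFRC. They were taken by gene name from the table of gene counts, where each name stands on a single row, and make up 10 of the 78691 genes in it. All 10 passed the filter on low counts in every comparison. On hg38, in GENCODE 44, NFE2L2 lies at chr2:177218667-177392756, NQO1 at chr16:69706996-69726668, GCLC at chr6:53497341-53616970, GCLM at chr1:93885199-93909456, SRXN1 at chr20:646615-653200, FTH1 at chr11:61959718-61967634 and TFRC at chr3:196012511-196082153, all on the minus strand. HMOX1 lies at chr22:35380361-35394214, TXNRD1 at chr12:104215779-104350307 and FTL at chr19:48965309-48966879, on the plus strand.

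RNA sequencing was performed on 2 prostate cancer cell lines in which MYCL, a MYC family transcription factor, was raised or lowered. C4-2B is a castration-resistant prostate adenocarcinoma line, and its cells were transduced with lentivirus that was either empty (control) or expressed human MYCL together with EGFP from the EF1A promoter (MYCL). NCI-H660 is a neuroendocrine prostate cancer line, and its cells carried a non-targeting shRNA (shCtrl) or shRNA against MYCL (shMYCL). The design text names an adenoviral vector for the knockdown, whereas the treatment protocol describes stable knockdown and the methods describe adenoviral and lentiviral constructs, so the vector of these libraries is uncertain. Each of the 4 groups had 2 libraries made from poly(A)-selected RNA of cultured cells, and the sources used here do not say whether the transduced cells were clones. The cell line, the construct (overexpression or shRNA) and the growth supplements of the medium differ together between the lines, so their parts in a difference between lines cannot be told apart. Only the C4-2B control libraries are called biological replicates in the labels, so p-values measure the spread between these libraries, which may be partly technical.

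NRF2 is held at a low level by the adaptor KEAP1, which hands it to a ubiquitin ligase, and it accumulates when oxidants or electrophiles modify KEAP1. It then pairs with small MAF proteins on antioxidant response elements, a DNA motif shared by genes for glutathione synthesis, the thioredoxin system, quinone reduction and heme breakdown, and by the ferritin genes. Iron balance has a further layer of control on the mRNA itself. When iron is scarce, iron regulatory proteins bind hairpins called iron-responsive elements, which block the translation of ferritin mRNA from its 5′ end and protect the mRNA of the transferrin receptor TFRC from decay at its 3′ end. Ferritin stores iron and TFRC imports it, so the mRNA level reflects only a share of the control of ferritin.

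Libraries held between 15177071 and 32344170 counts, and mitochondrial genes took from 9.63% to 10.7% of them in C4-2B and from 3.50% to 3.83% in NCI-H660. MYCL itself followed the labels. C4-2B control libraries held 371 and 320 MYCL counts and C4-2B MYCL libraries 65524 and 70253, and NCI-H660 had 1863 and 1602 counts in shCtrl against 165 and 198 in shMYCL. The summed level of 6 luminal prostate markers was 3740 to 3750 CPM (counts scaled to library size) in C4-2B control and 2860 to 2930 in C4-2B MYCL, and that of 6 neuroendocrine markers was 1450 to 1560 CPM in shCtrl and 1050 to 1170 in shMYCL. Luminal markers summed to at most 3.63 CPM in NCI-H660, with KLK3, KLK2 and FOLH1 at 0, and neuroendocrine markers to at most 2.23 CPM in C4-2B. The 5 fibroblast markers summed to 10.7 to 12.5 CPM in C4-2B control, 18.6 to 19.6 in C4-2B MYCL, 108 to 111 in shCtrl and 69.3 to 74.9 in shMYCL, with DCN at 0 in every library. Most of the sum in NCI-H660 was COL1A2, at 98.9 to 101.6 CPM in shCtrl and 60.8 to 64.4 in shMYCL. COL1A2 was at 0 in C4-2B, and LUM reached at most 1.74 CPM in NCI-H660. The 3 endothelial markers summed to at most 10.2 CPM. Of the 4 leukocyte markers CD68, also a lysosomal gene of epithelial cells, was the one above 3 counts in both libraries of a C4-2B group, at 11.4 and 14.3 CPM in control and 34.4 and 39.2 CPM in MYCL cells. PTPRC was at 0 in all 4 of these libraries, and the hemoglobin gene HBB was at 0 in all 8. The leukocyte marker CD14 was detected in every NCI-H660 library, at 1.40 to 1.43 CPM in shCtrl and 1.57 to 2.43 in shMYCL. The part of these shifts in the results was not tested, and in bulk RNA fewer cells of a type and less RNA per cell cannot be told apart.

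Sequences of the kind through which NRF2 and the iron regulatory proteins are known to act are shown first, as far as they were searched. RefSeq promoter windows of GRCh38.p14, from 250 bases before to 50 bases after a start site, were matched for 8 of the 10 genes, with 10 windows in all. HMOX1 and FTH1 were not among them. The antioxidant response element core TGACNNNGC was searched on both strands and occurred in 13.3% of all 35116 windows. It was found in the window of GCLM and in both windows of TXNRD1, printed here 5′ to 3′ on the gene's strand with the core in capitals. In the windows of NFE2L2, NQO1, GCLC, SRXN1, FTL and TFRC these letters did not occur. Sequence outside the windows was not searched, so elements further from a start site would be missed. The E-box CACGTG, a motif that MYC family proteins bind and that shares no match with the former motif here, occurred in no window of the 8 genes and in 7.3% of all windows.
GCLM, chr1:93909446-93909474, minus strand, core on the opposite strand: tacgatttctGCTTAGTCAttgtcttcca
TXNRD1, chr12:104215670-104215698, plus strand, core on the same strand: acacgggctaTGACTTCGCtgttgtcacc
TXNRD1, chr12:104215761-104215789, plus strand, core on the opposite strand: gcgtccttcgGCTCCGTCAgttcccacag
TXNRD1, chr12:104286920-104286948, plus strand, core on the opposite strand: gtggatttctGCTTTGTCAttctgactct

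Iron-responsive elements were searched in GENCODE 44 transcripts as a C, 5 bases, the loop CAGTG followed by any base other than G, and 5 bases that pair with the first 5. The pattern occurred in 187 of 19701 canonical protein-coding transcripts, or 0.95%. Matches were read out for FTL and TFRC only, so whether FTH1 or another member carries the pattern is not given here. FTL carried 1 match in its 5′ UTR, in exon 1, and TFRC carried 4 matches in its 3′ UTR, all in exon 19. They are shown 5′ to 3′ on the mRNA strand, with the loop in capitals. The stems of the 4 TFRC hairpins differ in sequence, whereas the loop letters CAGTG were fixed by the search pattern.
FTL, chr19:48965335-48965363, plus strand: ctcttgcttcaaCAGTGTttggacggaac
TFRC, chr3:196050979-196051007, minus strand: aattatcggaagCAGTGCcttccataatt
TFRC, chr3:196050575-196050603, minus strand: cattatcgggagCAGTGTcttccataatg
TFRC, chr3:196050510-196050538, minus strand: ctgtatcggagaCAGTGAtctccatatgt
TFRC, chr3:196050463-196050491, minus strand: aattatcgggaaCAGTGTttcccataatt

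In C4-2B cells, MYCL overexpression came with higher mRNA of heme oxygenase, both ferritin subunits, thioredoxin reductase, the glutathione synthesis subunit GCLM and the quinone reductase NQO1, and with lower mRNA of the transferrin receptor. Genes were called at a Benjamini-Hochberg adjusted p under 0.05 in edgeR's quasi-likelihood test over all genes tested together with a log2 fold change of 0.5 or more in either direction. Of the 10 genes, 6 were called higher (NQO1, HMOX1, GCLM, TXNRD1, FTH1, FTL), where 11.8% of all 16866 genes tested were called higher, and 1, TFRC, was called lower, where the background was 8.12%. NFE2L2, GCLC and SRXN1 were not called. The genes were chosen with earlier results of these data known, so these counts are no test against the background shares. The median log2 fold change of the 10 genes was 0.57, against -0.00169 over all genes tested. Among all called genes 59.2% were higher, and on log2(TPM + 1) values, where the median gene fell by 0.14 on the log2 scale, 33.5% were. On that scale NQO1 and GCLM fell under the fold minimum, at log2 fold changes of 0.44 and 0.35, and the other 5 genes kept their calls.

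In NCI-H660 cells, MYCL knockdown came with lower HMOX1, FTL and TFRC. These 3 of the 10 genes were called lower, where 8.99% of all 16980 genes tested were called lower, and 0 were called higher, where the background was 7.18%. An unadjusted p under 0.05 was reached by 6303 genes in this fit. The median log2 fold change of the 10 genes was -0.15, against -0.00289 over all genes tested. The contrast with C4-2B was tested as the difference between the lines in the effect of higher against lower MYCL, in a fit of all 8 libraries. It was called positive, meaning more positive in C4-2B, for 5 of the 10 genes (NQO1, HMOX1, GCLM, TXNRD1, FTH1), with a background of 9.59%, and negative for TFRC, with a background of 8.33%. It shares its libraries with the comparisons within the lines. It is not scaled to the MYCL change, which was far larger in C4-2B. Of all calls of this difference 53.5% were positive, and 35.7% on log2(TPM + 1) values.

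**Figure D1:**
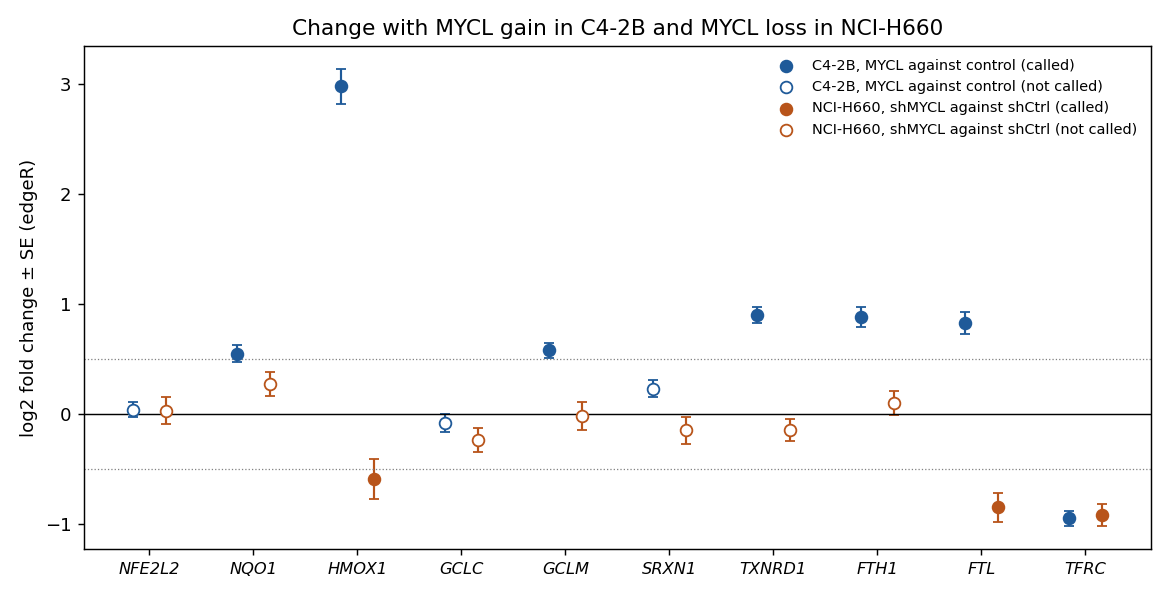
Log2 fold change with its SE (y axis) for each of the 10 genes in C4-2B (MYCL against control, blue) and in NCI-H660 (shMYCL against shCtrl, orange), with filled points for called genes and dotted lines at the fold minimum of 0.5. HMOX1 rose by 2.98 in C4-2B and fell by 0.59 in NCI-H660, whereas TFRC fell by 0.95 in C4-2B and by 0.92 in NCI-H660.

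NFE2L2, the gene of NRF2 itself, was not called in any comparison of the counts. Its level was 164 and 155 CPM in C4-2B control, 165 and 162 in C4-2B MYCL, 189 and 163 in shCtrl and 196 and 166 in shMYCL, where CPM are scaled by TMM factors over all 8 libraries and compare 1 gene between libraries. Neighbouring groups overlapped throughout. The log2 fold change was 0.04 (SE 0.07, adjusted p = 0.699, edgeR) with MYCL in C4-2B and 0.03 (SE 0.12, adjusted p = 0.86) with shMYCL in NCI-H660. Between the control groups it was 0.14 (SE 0.10, adjusted p = 0.21). The exons of NFE2L2 share 23.4% of their bases with HNRNPA3 on the opposite strand, which had 7014 to 20185 counts per library, and the sources used here do not state whether counting used the strand. By the root mean square difference of centred log2 mean CPM over the 4 groups, among 15791 genes, the genes near NFE2L2 included U2SURP (0.020) and ARNT (0.025).

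**Figure D2:**
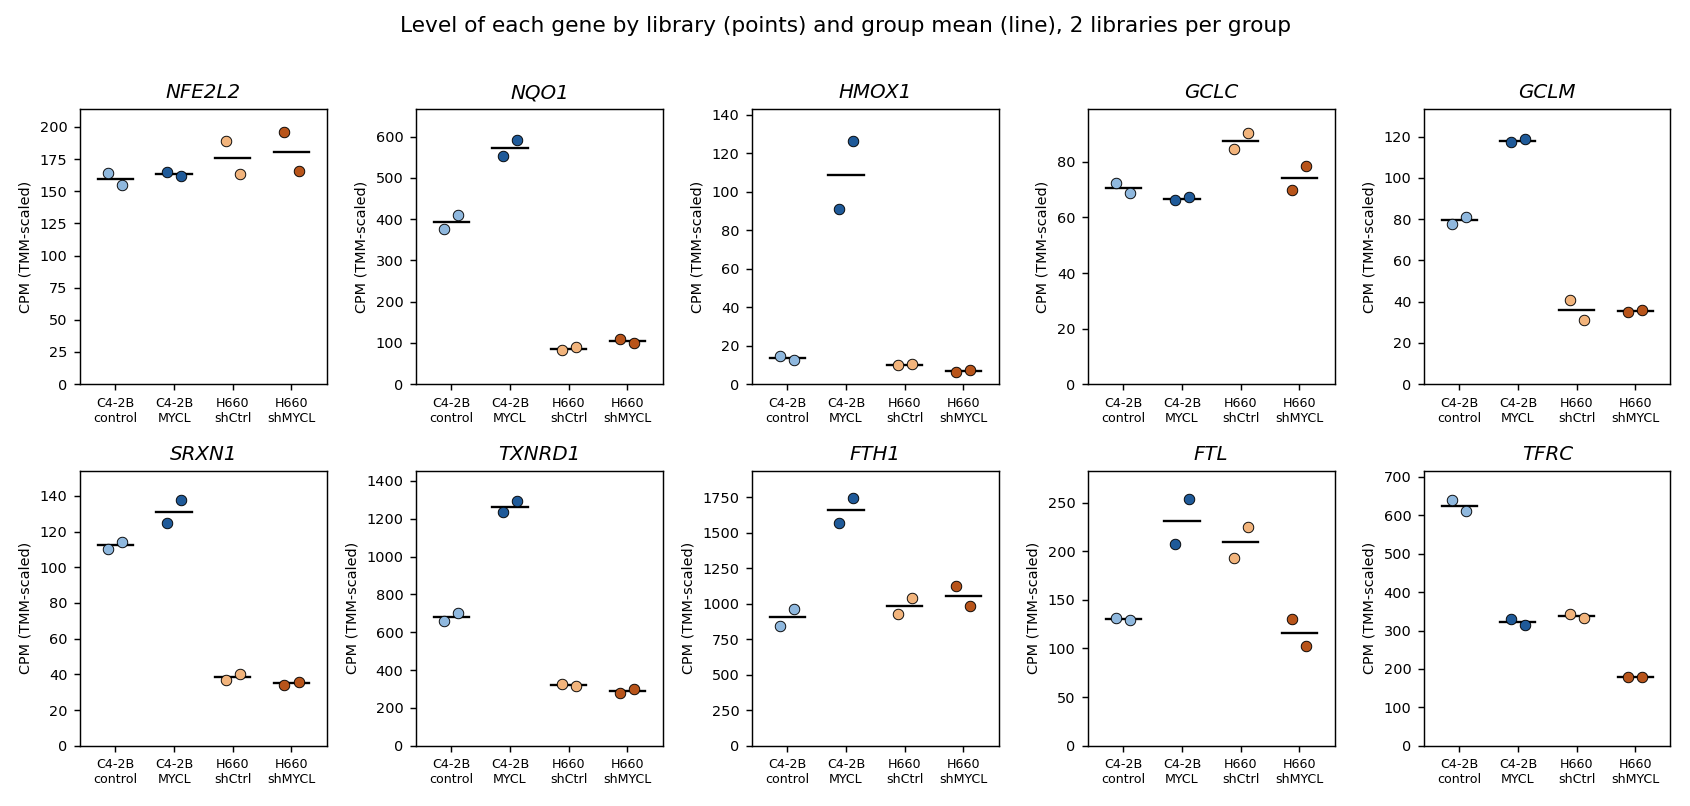
TMM-scaled CPM (y axis, from 0, linear) of each gene in each of the 8 libraries, with 1 panel per gene, points for libraries and a line at the mean of the 2 libraries. NFE2L2 is level across the 4 groups, HMOX1 reaches 91.1 and 126 CPM in C4-2B MYCL cells and at most 14.9 CPM elsewhere, and TFRC is lower in the second group of each line.

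Among the redox enzymes, TXNRD1, the cytosolic thioredoxin reductase that returns oxidized thioredoxin to its reduced form with NADPH, stood at 659 and 700.3 CPM in C4-2B control and at 1233 and 1295 CPM in C4-2B MYCL. In NCI-H660 it was 328 and 317 CPM in shCtrl and 281.5 and 300.3 CPM in shMYCL. The C4-2B MYCL libraries were the highest of all 8 and did not overlap with those of any other group. TXNRD1 rose in C4-2B with a log2 fold change of 0.90 (SE 0.07, adjusted p = 6.14e-05, edgeR). In NCI-H660 the log2 fold change was -0.15 (SE 0.10, adjusted p = 0.309), and the effects of higher MYCL differed between the lines by 0.75 (SE 0.12, adjusted p = 0.000848).

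NQO1, a quinone reductase that spares cells the radicals formed by partial quinone reduction, was at 375 and 410.3 CPM in C4-2B control and at 554 and 592 in C4-2B MYCL. It was at 82.5 and 90.2 CPM in shCtrl and at 109.7 and 98.7 in shMYCL, so that every NCI-H660 library lay below every C4-2B library. NQO1 rose in C4-2B with a log2 fold change of 0.55 (SE 0.08, adjusted p = 0.000839, edgeR), and without the first C4-2B control library the value was 0.48, under the fold minimum. In NCI-H660 the log2 fold change with shMYCL was 0.27 (SE 0.11, adjusted p = 0.0815), and the difference between the lines in the effect of higher MYCL was 0.82 (SE 0.13, adjusted p = 0.00102). An antisense gene, NQO1-AS1, shares 19.4% of the exon bases of NQO1 and had 12 to 71 counts per library, against 1474 to 11546 for NQO1. The genes nearest to NQO1 in pattern over the 4 groups were RPL3 (root mean square difference 0.013), CBS (0.035) and RPL28 (0.038).

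SRXN1, sulfiredoxin, which repairs overoxidized peroxiredoxins, was at 110.5 and 114 CPM in C4-2B control and 125 and 137.5 in C4-2B MYCL. Its log2 fold change of 0.23 (SE 0.08) had an adjusted p of 0.0466 in edgeR's quasi-likelihood test and stayed under the fold minimum. In NCI-H660 it was at 36.9 and 40.4 CPM in shCtrl and 34.1 and 36.0 in shMYCL, with a log2 fold change of -0.15 (SE 0.12, adjusted p = 0.40). The C4-2B libraries lay above all NCI-H660 libraries. A row named only by an identifier shares 90.7% of the exon bases of SRXN1 on the same strand and had 0 counts in every library.

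The 2 subunits of glutamate-cysteine ligase, the rate-limiting enzyme of glutathione synthesis, differed in their response in C4-2B. The modifier subunit GCLM was at 77.4 and 81.3 CPM in control and at 117 and 119 CPM in MYCL cells, without overlap, and rose with a log2 fold change of 0.58 (SE 0.07, adjusted p = 0.000476, edgeR). The catalytic subunit GCLC was at 72.5 and 69.0 CPM in control and at 66.1 and 67.4 CPM in MYCL cells, with a log2 fold change of -0.08 (SE 0.08, adjusted p = 0.465). No test of GCLM against GCLC was made.

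In NCI-H660, GCLM was at 40.6 and 31.2 CPM in shCtrl and at 35.0 and 35.7 CPM in shMYCL, where the groups overlapped. GCLC was at 84.7 and 90.5 CPM in shCtrl and at 70.1 and 78.5 CPM in shMYCL, which did not overlap. The log2 fold changes were -0.02 (SE 0.13, adjusted p = 0.922, edgeR) for GCLM and -0.24 (SE 0.11, adjusted p = 0.115) for GCLC. The difference between the lines in the effect of higher MYCL was 0.55 for GCLM (SE 0.16, adjusted p = 0.0252) and -0.32 for GCLC (SE 0.13, adjusted p = 0.0966). The GCLM difference was called in 10 of 19 settings. It was lost on all 4 TPM scales, and leaving out any of 5 of the 8 libraries gave an adjusted p from 0.0564 to 0.0971: the first C4-2B control library, the second C4-2B MYCL library, the second shCtrl library and either shMYCL library.

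HMOX1, heme oxygenase 1, which opens the heme ring and releases iron, carbon monoxide and biliverdin, showed the largest change of the 10 genes in C4-2B. It was at 14.9 and 12.7 CPM in C4-2B control and at 91.1 and 126 CPM in C4-2B MYCL. In NCI-H660 it was at 9.90 and 10.4 CPM in shCtrl and at 6.43 and 7.09 CPM in shMYCL. None of the 4 groups overlapped, and the level was higher in the group with more MYCL in each line. HMOX1 rose 7.88-fold in C4-2B, a log2 fold change of 2.98 (SE 0.16, adjusted p = 9.6e-06, edgeR), with 2.72 to 3.20 over all alternatives. In NCI-H660 it fell by 0.59 on the log2 scale (SE 0.18, adjusted p = 0.0284). This call rested on 103 to 203 counts per library and was lost with DESeq2 (adjusted p = 0.11), without the first shMYCL library (0.184), without the second (0.0754) and with limma on unfiltered TPM (0.134). The difference between the lines was 2.39 (SE 0.24, adjusted p = 5.04e-05). HMOX2, the constitutive heme oxygenase, had a log2 fold change of -0.01 in C4-2B (SE 0.08, adjusted p = 0.918).

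The ferritin genes encode the heavy subunit FTH1, a ferroxidase, and the light subunit FTL, which helps nucleate the iron core. FTH1 was at 842 and 967 CPM in C4-2B control and at 1570 and 1749 CPM in C4-2B MYCL. It was at 929 and 1044 CPM in shCtrl and at 1128 and 985 CPM in shMYCL. The C4-2B MYCL libraries stood above all others, and the other 3 groups overlapped with their neighbours. FTH1 rose in C4-2B with a log2 fold change of 0.88 (SE 0.09, adjusted p = 0.000184, edgeR). In NCI-H660 the log2 fold change was 0.10 (SE 0.11, adjusted p = 0.576), and the difference between the lines was 0.97 (SE 0.15, adjusted p = 0.000673).

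FTL was at 131 and 129.5 CPM in C4-2B control and at 207 and 254 CPM in C4-2B MYCL, and at 193 and 225 CPM in shCtrl and 130.4 and 102 CPM in shMYCL. In each line the 2 libraries with more MYCL lay above the 2 with less. FTL rose in C4-2B with a log2 fold change of 0.83 (SE 0.10, adjusted p = 0.000349, edgeR) and fell by 0.85 in NCI-H660 (SE 0.13, adjusted p = 0.000194). Its call in NCI-H660 was lost in 1 of 16 settings, limma on unfiltered TPM. The difference between the lines in the effect of higher MYCL was -0.02 (SE 0.18, adjusted p = 1).

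Reads of ferritin genes can be shared with their processed pseudogenes. The 27 rows named as FTH1 pseudogenes held 21 to 46 counts per library, at most 0.255% of the FTH1 counts, and the 18 FTL pseudogene rows held 5 to 12 counts, at most 0.412% of the FTL counts. Adding these counts to their genes left all calls of the 10 genes as they were. The exons of FTH1 share 63.2% of their bases with BEST1 on the opposite strand, which had 84 to 335 counts per library against 16271 to 28963 for FTH1.

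TFRC, the transferrin receptor through which cells take up iron bound to transferrin, was at 640.0 and 610.4 CPM in C4-2B control and at 331 and 313 CPM in C4-2B MYCL. In NCI-H660 it was at 342 and 332 CPM in shCtrl and at 178 in both shMYCL libraries. Within each line the groups were separate and the altered cells were lower, although MYCL was raised in C4-2B and lowered in NCI-H660. From high to low the order was C4-2B control, shCtrl, C4-2B MYCL, shMYCL, and the nearest libraries of shCtrl and C4-2B MYCL were closer to each other than the libraries within either group. TFRC fell by 0.95 on the log2 scale in C4-2B (SE 0.07, adjusted p = 5.16e-05, edgeR) and by 0.92 in NCI-H660 (SE 0.10, adjusted p = 1.55e-05). In terms of higher against lower MYCL the effects had opposite signs and differed by -1.88 (SE 0.12, adjusted p = 8.73e-07), a value that ranged from -2.01 to -1.82 over the alternatives.

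Of 14212 genes tested in both lines, 72 (0.507%) were called lower in C4-2B MYCL and lower in shMYCL, as TFRC was. HMOX1 and FTL belonged to the 256 genes (1.80%) called higher in C4-2B MYCL and lower in shMYCL. These comparisons share no library. The genes nearest to TFRC in pattern over the 4 groups were PTOV1-AS1 (root mean square difference 0.055), MORC2-AS1 (0.063) and TREX2 (0.066), of which the first 2 are antisense rows whose reads may not be separable from their partners.

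**Figure D3:**
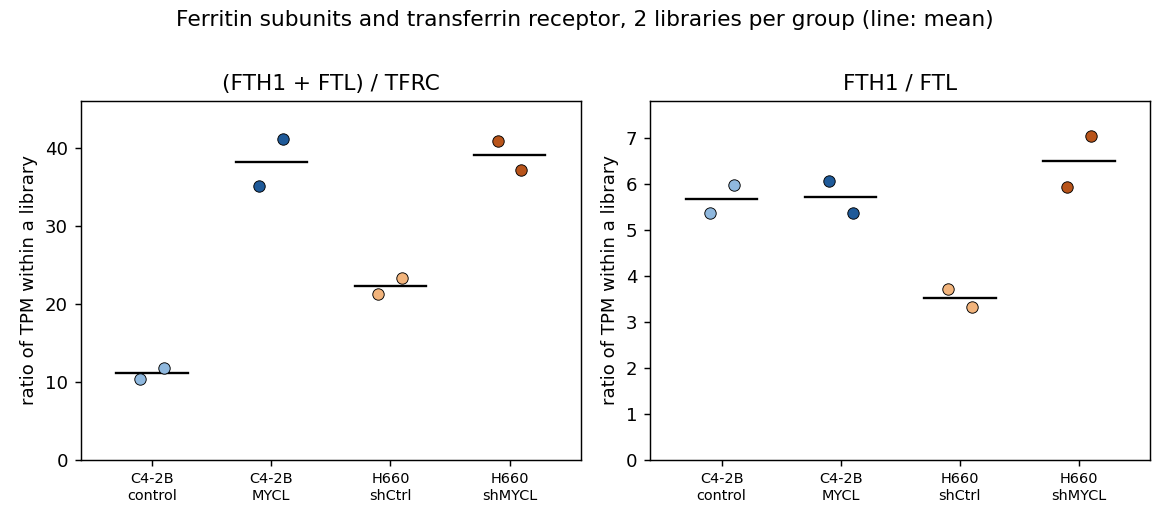
Ratio of TPM within each library (y axis, from 0) for the sum of both ferritin subunits over TFRC (left) and for FTH1 over FTL (right), with points for the 2 libraries of each group and a line at their mean. The ferritin to TFRC ratio is higher in the second group of each line, reaching 35.2 to 41.2 from 10.4 to 11.8 in C4-2B and 37.2 to 41.0 from 21.3 to 23.4 in NCI-H660.

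TPM values, which the authors scaled by gene length, allow levels to be set against each other between genes. The summed TPM of FTH1 and FTL was 10.4 and 11.8 times that of TFRC in C4-2B control and 35.2 and 41.2 times in C4-2B MYCL. It was 21.3 and 23.4 times in shCtrl and 41.0 and 37.2 times in shMYCL. The ratio was higher in the altered cells of each line, without overlap, but its parts moved differently. In C4-2B, mean TPM of FTH1 and FTL was higher and that of TFRC lower in MYCL cells. In NCI-H660, mean FTH1 was 2098 TPM in shCtrl and 2162 in shMYCL, and FTL fell from 597 to 336. TFRC fell there from 121 to 63.9 TPM. The FTH1 to FTL ratio was 5.38 and 5.98 in C4-2B control and 6.07 and 5.38 in C4-2B MYCL, which overlapped, and it was 3.71 and 3.33 in shCtrl and 5.94 and 7.06 in shMYCL, which did not. With 2 libraries against 2, an exact two-sided permutation test of such a ratio cannot go below p = 0.33, and no test was made.

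**Figure D4:**
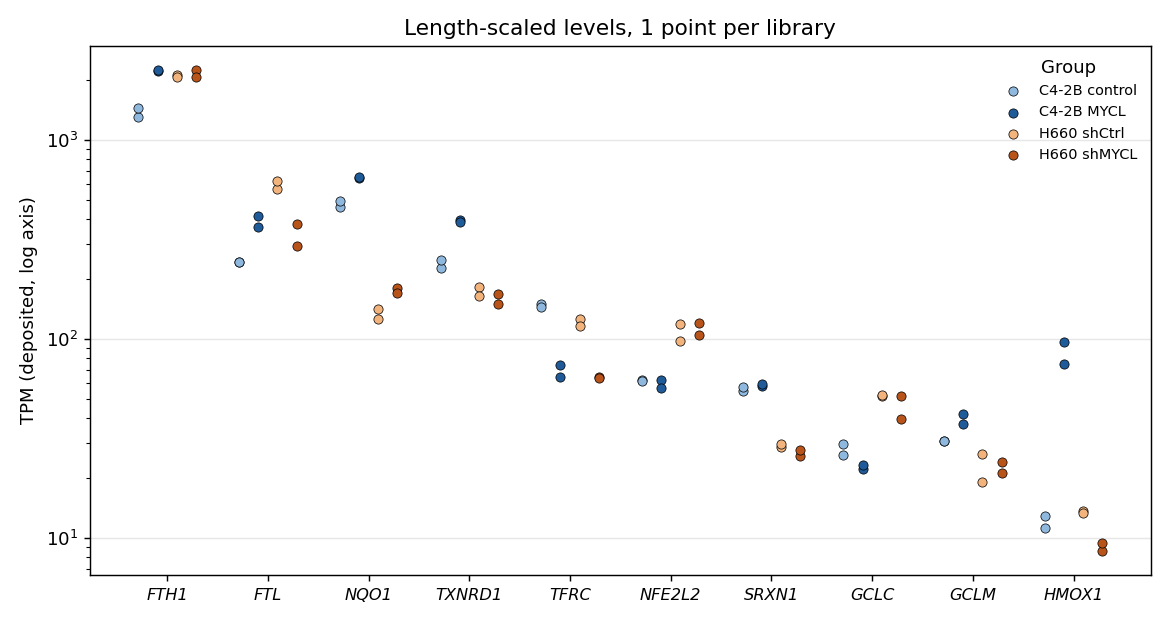
Deposited TPM (y axis, log scale) of the 10 genes in each library, 1 point per library, coloured by group. Genes stand in a fixed order from FTH1 to HMOX1, which is not a strict ranking by level. FTH1 is the most abundant gene in every library, at 1310 to 2252 TPM, and HMOX1 spans 8.58 to 96.6 TPM.

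On the TPM scale FTH1 was the most abundant of the 10 genes in every library, at 1310 and 1456 TPM in C4-2B control and 2073 to 2252 TPM in the other groups. FTL ranged from 243.5 to 624 TPM, NQO1 from 127 to 651 and TXNRD1 from 150.2 to 397. TFRC ranged from 63.6 to 150.1 TPM and NFE2L2 from 56.8 to 119.6. HMOX1 was the least abundant in 6 libraries, at 8.58 to 13.6 TPM, and stood at 75.1 and 96.6 TPM in C4-2B MYCL, above TFRC, NFE2L2, SRXN1, GCLC and GCLM there.

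The control groups of the lines were also compared, and this comparison shares its libraries with the others. In shCtrl NCI-H660 against control C4-2B, 5 of the 10 genes were called lower, NQO1 (log2 fold change -2.19, SE 0.10), SRXN1 (-1.54, SE 0.09), GCLM (-1.15, SE 0.11), TXNRD1 (-1.08, SE 0.08) and TFRC (-0.89, SE 0.08), where 33.3% of 19605 genes tested were called lower. The highest adjusted p among these 5, in edgeR's quasi-likelihood test, was 5.00e-07. FTL was called higher at 0.68 (SE 0.13, adjusted p = 0.000238), where the background was 36.5%. The scale mattered here: on log2(TPM + 1) values the median of all genes lay 0.52 above 0, 71.1% of calls were higher instead of 52.2%, and 4 of the 10 genes were called higher and 2 lower. Lower NQO1 and SRXN1 and higher FTL were called in all 19 settings. Of the other 7, TXNRD1, GCLM and TFRC kept their direction on the TPM scale and lost their call, NFE2L2, GCLC and FTH1 were called higher there, and HMOX1 was at -0.45 on counts and 0.15 on TPM.

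The 10 genes were then set beside 138 genes of 8 related lists. The lists were compiled from general knowledge of the pathways, with earlier results of these data known. In C4-2B, 14 of the 118 list genes tested were called higher, where 11.8% of all genes tested were, and 4 lower, where 8.12% were. The 15.3% of list genes called in either direction stands against both of these shares together. Their median log2 fold change was -0.01. In NCI-H660, 8 of 123 were called higher and 8 lower, with a median of -0.04, where 7.18% and 8.99% of all genes tested were called. The counts per list below are to be read beside these shares, and no list was tested as a set.

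**Figure D5:**
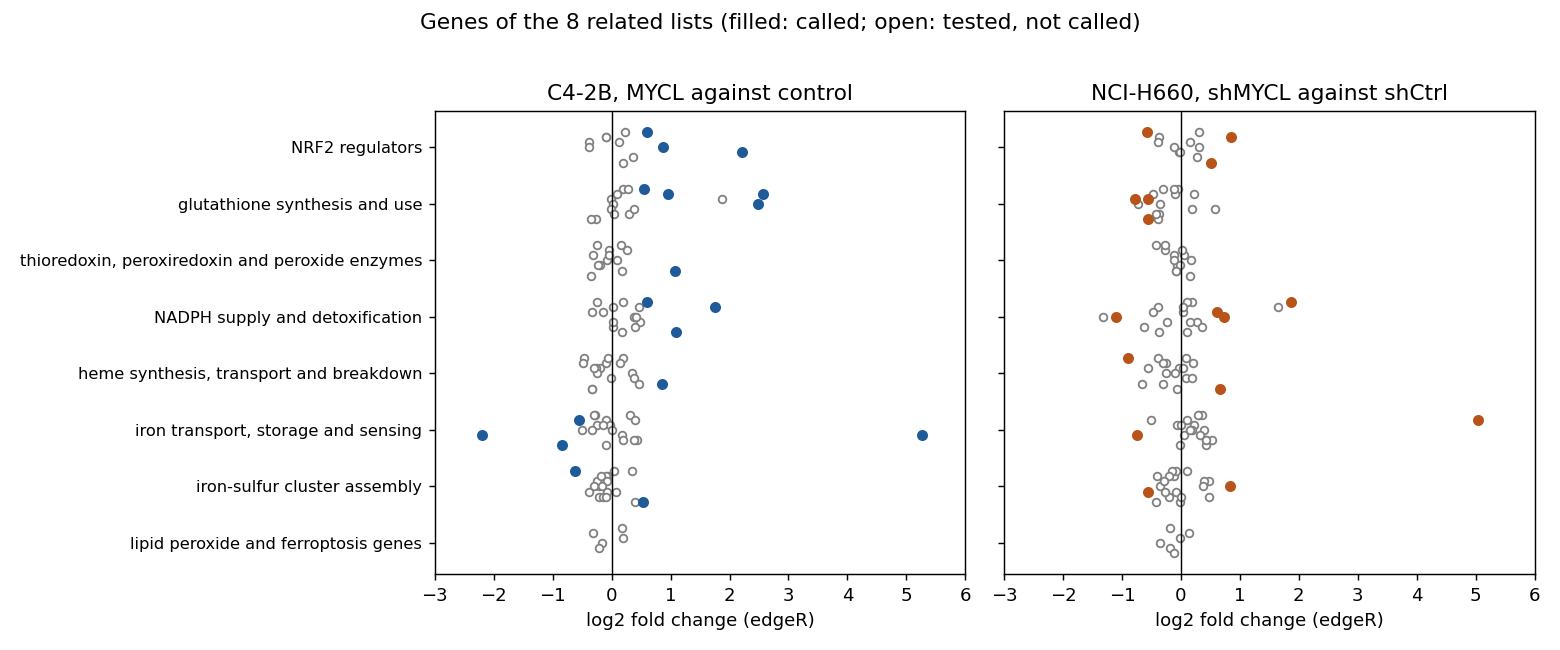
Log2 fold change (x axis) of the tested genes of the 8 lists (rows) in C4-2B (left) and NCI-H660 (right), with filled points for called genes. In C4-2B the called genes of the first 5 lists lie to the right of 0, and the point at 5.04 in NCI-H660 is CP, whose shCtrl libraries held 1 and 0 counts.

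Among 12 NRF2 regulators, partners and relatives, 3 of 11 tested rose in C4-2B MYCL cells and 0 fell. Of all genes tested, 11.8% were called higher. MAFF, a small MAF partner of NRF2, was at 2.37 and 2.00 CPM in control and 11.7 and 8.63 CPM in MYCL cells, a log2 fold change of 2.21 (SE 0.24, adjusted p = 0.000273, edgeR). SQSTM1, the autophagy receptor p62 that can draw KEAP1 away from NRF2, rose by 0.87 (SE 0.10), and NFE2L1, the NRF2 relative that drives proteasome genes, by 0.60 (SE 0.09). KEAP1 had a log2 fold change of -0.39 (SE 0.08, adjusted p = 0.00675), under the fold minimum. In NCI-H660, where all 12 were tested, BACH2 and MAFG rose with shMYCL, by 0.85 (SE 0.18) and 0.51 (SE 0.10), and BACH1, the repressor that competes with NRF2 for its sites and releases them when it binds heme, fell by 0.58 (SE 0.12, adjusted p = 0.00316). BACH1 was at 34.7 and 32.5 CPM in shCtrl and 21.8 and 23.3 CPM in shMYCL, and in C4-2B its log2 fold change was 0.22 (SE 0.08, adjusted p = 0.071).

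For glutathione synthesis and use, 4 of 16 tested genes rose in C4-2B and 0 fell, where 11.8% of all genes tested were called higher. CHAC1, which cleaves glutathione and is a target of the ATF4 stress response, was at 6.11 and 5.86 CPM in control and 31.1 and 40.03 CPM in MYCL cells, a log2 fold change of 2.57 (SE 0.14, adjusted p = 1.27e-05, edgeR). SLC7A11, the cystine importer that supplies glutathione synthesis and is also an ATF4 target, went from 164 and 174 CPM to 273 and 383 CPM, a log2 fold change of 0.96 (SE 0.13, adjusted p = 0.000873). The other 2 were MGST3 (0.55, SE 0.08) and GSTM2 (2.48, SE 0.52), the latter with 11 to 72 counts per C4-2B library and close paralogs with which reads may be shared. In NCI-H660, 3 of 16 tested genes fell with shMYCL, GGT1 (-0.78, SE 0.15), GSTA4 (-0.56, SE 0.13) and MGST2 (-0.56, SE 0.18), and 0 rose. Of all genes tested there, 8.99% were called lower. SLC7A11 had a log2 fold change of -0.47 there (SE 0.11, adjusted p = 0.00763), under the fold minimum.

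Of 13 thioredoxin, peroxiredoxin and peroxide enzymes, PRDX5, a peroxiredoxin of mitochondria and peroxisomes, was the one called in C4-2B. It was at 117 and 108 CPM in control and at 216 and 254 CPM in MYCL cells, a log2 fold change of 1.07 (SE 0.09, adjusted p = 8.49e-05, edgeR). Thioredoxin itself, TXN, had -0.05 (SE 0.07, adjusted p = 0.659), beside the rise of its reductase TXNRD1. In NCI-H660 0 of the 13 were called, and their log2 fold changes lay between -0.43 and 0.17.

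In the list of NADPH supply and detoxification, 3 of 16 tested genes rose in C4-2B and 0 fell, where 11.8% of all genes tested were called higher. OSGIN1, an NRF2 target, rose by 1.75 (SE 0.18), from 5.46 and 5.15 CPM to 14.98 and 20.8 CPM. TRIM16 rose by 1.09 (SE 0.10) and its truncated relative TRIM16L by 0.60 (SE 0.10), and reads may be shared between them. In NCI-H660, 3 of 19 tested genes rose with shMYCL, NQO2 (0.73, SE 0.15), ABCC4 (0.62, SE 0.13) and ABCC2 (1.87, SE 0.55, at 7 to 26 counts per library), and AKR1C3 fell by 1.10 (SE 0.34, at 23 to 69 counts). Of all genes tested there, 7.18% were called higher and 8.99% lower.

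Iron genes other than the members moved in small numbers. Of 20 tested genes of iron transport, storage and sensing, LCN2 rose in C4-2B and SLC39A8, STEAP1 and STEAP4 fell. LCN2, lipocalin 2, a secreted carrier of iron-binding siderophores, had 13 and 2 counts in control and 148 and 220 counts in MYCL cells, a log2 fold change of 5.27 (SE 0.47, adjusted p = 1e-04, edgeR) whose size rests on the few control counts. SLC39A8, a zinc, manganese and iron importer, went from 134 and 126 CPM to 72.5 CPM in both MYCL libraries, a log2 fold change of -0.84 (SE 0.07). STEAP1, a prostate surface protein of the metalloreductase family, fell by 0.56 (SE 0.07), and STEAP4 by 2.19 (SE 0.40) at 8 to 86 counts per library. In NCI-H660 STEAP3, the endosomal ferric reductase that serves the transferrin cycle, was at 28.0 and 26.7 CPM in shCtrl and 16.9 and 15.7 CPM in shMYCL and fell by 0.75 (SE 0.13, adjusted p = 0.000706). CP, ceruloplasmin, had 1 and 0 counts in shCtrl and 23 and 13 in shMYCL and was called higher.

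Among the genes of iron sensing, ferritin turnover and iron export, the 5 given here were not called within a line. ACO1, the mRNA of iron regulatory protein 1, had log2 fold changes of 0.32 in C4-2B (SE 0.08) and 0.30 in NCI-H660 (SE 0.12). IREB2, for iron regulatory protein 2, had -0.33 (SE 0.07) and 0.05 (SE 0.12). FBXL5, the iron-sensing adaptor that marks iron regulatory protein 2 for degradation, had 0.39 in each line (SE 0.09 and 0.10, adjusted p = 0.00744 and 0.0129), and its effect of higher MYCL differed between the lines by 0.78 (SE 0.13, adjusted p = 0.0012). NCOA4, the receptor that delivers ferritin to the lysosome, had -0.10 (SE 0.07) and 0.35 (SE 0.10), and SLC40A1, the iron exporter ferroportin, -0.30 (SE 0.17) and -0.51 (SE 0.25, adjusted p = 0.146).

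Of 17 genes of heme synthesis, transport and breakdown, BLVRB, a biliverdin reductase that acts after heme oxygenase, was the one called in C4-2B, at 80.6 and 82.1 CPM in control and 131 and 161 CPM in MYCL cells (log2 fold change 0.85, SE 0.10, adjusted p = 0.000326, edgeR). In NCI-H660 the folate and heme importer SLC46A1 rose by 0.66 (SE 0.11) and the porphyrin transporter ABCB6 fell by 0.90 (SE 0.16). Of 20 genes of iron-sulfur cluster assembly, the scaffold ISCU rose by 0.54 (SE 0.12) in C4-2B, and IBA57 rose by 0.83 (SE 0.13) and ISCA1 fell by 0.56 (SE 0.11) in NCI-H660. Of 6 lipid peroxide and ferroptosis genes, 5 of them tested in C4-2B, 0 were called in either line, with log2 fold changes between -0.36 and 0.19.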

How the data were processed

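The authors deposited gene-level estimated counts (34.4% of values above 0 carry decimals) and TPM, which are length-scaled, from paired-end reads on hg38 per the labels. The aligner, counting tool and strand setting are not given in the sources used here, and the deposited TPM table ends at 65535 genes. Counts were rounded. Each line was fitted alone in edgeR 4.0.16 (R 4.3.3) with TMM, filterByExpr and the quasi-likelihood test, and the comparisons between lines in a fit of all 8 libraries. SEs were derived from the fold change and the test statistic. Alternatives used DESeq2 1.42.0 and limma 3.58.1 on log2(TPM + 1). Tests were tested on simulated data. Positions came from GENCODE 44, which held 61458 of the 78691 identifiers. Members and lists were chosen with earlier results of these data known. Named list genes are the called genes with the 2 largest rises and 2 largest falls per list and line at a mean log2 CPM of at least 2; other genes were named after their values were seen. Libraries of 1 group differed by more than counting noise, with chi-square per degree of freedom from 5.13 to 12.8. Counting precision at 0 counts allows up to 3 counts. Some genes that the naming rule selects are not reported here.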

Additional observations from a re-analysis of the deposited data

Results flagged for a closer look

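For 6 of the 10 genes the effect of higher against lower MYCL differed between C4-2B and NCI-H660, by the interaction test in edgeR over all genes. Of all genes tested, 9.59% were called positive and 8.33% negative. The differences in log2 fold change, C4-2B minus NCI-H660, were 0.82 for NQO1, 2.39 for HMOX1, 0.55 for GCLM, 0.75 for TXNRD1, 0.97 for FTH1 and -1.88 for TFRC. The GCLM call held in 10 of 19 settings and was lost on the TPM scales. The TXNRD1 call held in 18, and those of NQO1, HMOX1, FTH1 and TFRC in all 19. Of these 6 genes, HMOX1 and TFRC were called within both lines. TFRC was lower with more MYCL in C4-2B and lower with less MYCL in NCI-H660, in 2 of 2 libraries of each group. NQO1 had log2 fold changes of 0.55 with MYCL in C4-2B and 0.27 with shMYCL in NCI-H660, without overlap of the groups in either line, and FTH1 had 0.88 and 0.10, and neither was called in NCI-H660. The cell line, the direction and size of the MYCL change, the construct and the medium differ together and cannot be told apart. Mean MYCL went from 13.1 to 3987 CPM in C4-2B and from 93.0 to 11.1 CPM in NCI-H660. Groups of 2 libraries are too small to look for libraries that stand apart in a single gene.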

How the results depend on the processing

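Over the alternatives, HMOX1, TXNRD1, FTH1, FTL and TFRC kept their calls in C4-2B in all 16 settings, and TFRC kept its call in NCI-H660 in 15 of 16. A fold minimum of 1 left 1411 genes called in C4-2B, 1022 in NCI-H660 and 1666 for the line difference, with 1, 0 and 2 of the 10 genes, and no minimum gave 5895 and 4204 genes in the lines. Unfiltered limma on log2(TPM + 1) called 1940 genes in C4-2B, 1 in NCI-H660 (5469 at an unadjusted p under 0.05) with 0 of the 10, and 1898 for the line difference. In NCI-H660 limma called 1702 genes on log2(TPM + 1), 1600 with a pseudocount of 0.1 and 1692 after centring. A minimum of 10 counts in every library gave 8512 genes between control lines, with fewer genes tested. Signs that turned all belong to values not called: NFE2L2 in C4-2B was -0.05 on each uncentred TPM scale. GCLM in NCI-H660 was 0.01 on these scales and 0.0 after centring. Between control lines HMOX1 was 0.15, 0.16 and 0.15 on the uncentred TPM scales and FTH1 -0.15 after centring. SRXN1 was -0.05 for the line difference on uncentred TPM. Leaving out 1 library gave 2835 to 3556 genes in C4-2B, with 6 or 7 of the 10, 2292 to 3035 in NCI-H660, with 2 or 3, 13216 to 14157 between control lines, with 6 or 7, and 2532 to 3513 for the line difference, with 5 or 6. The ranges were -0.01 to 0.07 for NFE2L2 in C4-2B, -0.08 to 0.15 for NFE2L2 and -0.20 to 0.18 for GCLM in NCI-H660, and -0.06 to 0.18 for NFE2L2 and -0.21 to 0.13 for FTL in the line difference. The cause was not tested. Libraries share only a replicate number (correlation of deviations -0.0011 in C4-2B and 0.0088 in NCI-H660), and with a replicate block 3536, 2949, 13128 and 3576 genes were called, with 7, 3, 6 and 6 of the 10. With 2 libraries a group and 103 to 203 HMOX1 counts in NCI-H660, small changes there are at the limit of detection.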
